A study of Mus musculus with 40 samples.

Results

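The expression of 10 genes that write, copy, oxidise or protect DNA methylation was followed through the first cleavage of mouse embryos. They are Dnmt1, Uhrf1, Dnmt3a, Dnmt3b, Dnmt3l, Tet1, Tet3, Zfp57, Trim28 and Dppa3, chosen by symbol, and all 10 are among the 14916 genes tested. The arrays hold 22 probe sets for them alone, between 1 and 5 per gene, and the probe set with the highest mean over all arrays stood for each gene. Poly(A) RNA was hybridised to Affymetrix mouse arrays of 45101 probe sets. All embryos carry the B6D2 background. Of 40 arrays in 10 groups of 4, 39 hold values, and the untreated 1-cell SCNT group has 3 because the values of its replicate 2 are empty.

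The 10 groups are 1-cell and 2-cell embryos of 5 kinds. Fertilized embryos, parthenogenetic embryos (activated eggs with no sperm genome) and SCNT embryos (somatic cell nuclear transfer, with cumulus cells as nuclear donors) were untreated. The fertilized and the SCNT kind were in addition given α-amanitin, which blocks RNA polymerase II. For the fertilized samples the drug was read from the letter A in the titles. MEMα is named as medium for most SCNT samples, KSOM for 1 fertilized sample, and no medium elsewhere, so origin and medium cannot be told apart. Hours of culture, embryos per sample, and whether replicates came from separate collections are not given in the labels, so p-values measure only the spread between these samples.

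DNMT1 copies CpG methylation to the new strand after replication, and UHRF1 brings it to hemimethylated sites. DNMT3A and DNMT3B place methylation on unmethylated DNA, helped by DNMT3L, which has no catalytic activity of its own. TET enzymes oxidise 5-methylcytosine, and TET3 does so on the paternal genome of the zygote. Most methylation is lost in the cleavage embryo, but imprinted regions keep it: ZFP57 binds methylated imprinted sequences and recruits TRIM28, a scaffold for histone and DNA methyltransferases, while DPPA3 (Stella) shields the maternal genome from TET3.

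CpG, the dinucleotide on which these proteins act, is marked in capitals in the promoters of 2 genes that rose and 2 that fell between the stages in fertilized embryos. Each runs from 250 bases before to 50 after the most upstream RefSeq start (GRCm38.p6).
Trim28, chr7:13023902-13024201, plus strand: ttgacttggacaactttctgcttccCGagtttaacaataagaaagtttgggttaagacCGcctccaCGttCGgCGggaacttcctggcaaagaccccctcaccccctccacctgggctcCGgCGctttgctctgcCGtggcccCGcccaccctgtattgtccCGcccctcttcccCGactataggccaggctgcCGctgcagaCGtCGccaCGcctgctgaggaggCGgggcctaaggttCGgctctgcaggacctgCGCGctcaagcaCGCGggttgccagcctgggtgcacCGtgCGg
Tet1, chr10:62887275-62887574, minus strand: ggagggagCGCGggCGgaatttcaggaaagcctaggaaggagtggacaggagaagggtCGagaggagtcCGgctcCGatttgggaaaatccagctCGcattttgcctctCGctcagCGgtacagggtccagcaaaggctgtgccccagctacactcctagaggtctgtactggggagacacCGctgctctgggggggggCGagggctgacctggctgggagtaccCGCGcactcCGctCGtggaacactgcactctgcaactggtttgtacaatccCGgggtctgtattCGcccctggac
Uhrf1, chr17:56303087-56303386, plus strand: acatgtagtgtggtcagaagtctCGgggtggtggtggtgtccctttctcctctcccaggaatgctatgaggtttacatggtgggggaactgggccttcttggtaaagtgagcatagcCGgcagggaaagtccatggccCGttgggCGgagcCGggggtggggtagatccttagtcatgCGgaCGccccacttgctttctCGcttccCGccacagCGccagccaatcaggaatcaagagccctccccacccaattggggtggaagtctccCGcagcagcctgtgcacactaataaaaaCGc
Zfp57, chr17:37000913-37001212, plus strand: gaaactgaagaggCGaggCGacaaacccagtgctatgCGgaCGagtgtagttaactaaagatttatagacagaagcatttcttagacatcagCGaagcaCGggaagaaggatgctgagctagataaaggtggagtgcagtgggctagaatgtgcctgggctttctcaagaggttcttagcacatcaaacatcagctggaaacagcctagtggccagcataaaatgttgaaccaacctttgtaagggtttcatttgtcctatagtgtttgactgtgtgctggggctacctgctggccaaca
The letters CG, which read the same on both strands, occur 23 times in the Trim28 promoter, 17 times in that of Tet1, 12 times in that of Uhrf1 and 6 times in that of Zfp57. Of 32851 promoters of this length, 21.5%, 31.4%, 39.6% and 56.4% hold at least as many, in that order, and the median is 7. RefSeq promoters were found for 9 of the 10 genes, 18 in all. Across their most upstream starts the count ran from 2 for Dnmt1 to 46 for Dnmt3a, with 30 for Dnmt3b and 22 for Tet3. All of these fell between the stages in fertilized embryos, with counts both lower and higher than those of Trim28 and Tet1. Dnmt1 has further starts with 12 and 33, and Uhrf1 another with 33. The arrays do not tell which start a transcript used.

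Levels below are log2(intensity + 6.9) after quantile normalization, and differences and their standard errors (SE) are on that scale. A gene is said to rise or fall where limma's p, adjusted by Benjamini-Hochberg over all genes of the comparison, is under 0.05. Levels of different genes are read by different probes and are not compared. In pools of embryos, fewer cells of a kind and less RNA per cell cannot be told apart, and each level is relative to the other poly(A) RNA of the sample. All 10 oocyte markers were measured, with a summed intensity of 29600 to 45430 on 1-cell arrays. On 2-cell arrays it was 8670 to 22663 untreated and 26030 to 30335 with α-amanitin. Of 8 markers of the 2-cell embryo 4 were measured, and their sum was 5976 to 15860 on untreated 2-cell arrays and 143.7 to 1473 elsewhere. Of 14 cumulus and granulosa markers 11 were measured, with a summed intensity of 1220 to 3991 on untreated 2-cell arrays and 400.6 to 941.8 elsewhere, most of the former from Amhr2. Markers of sperm (4 of 7 measured) summed to at most 263.6 and of blood (2 of 4) to at most 98.1. Their part in the results was not tested.

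Several technical measures moved with the groups. Poly(A) spike-in controls averaged 3.67 in 1-cell SCNT and 3.82 in 1-cell SCNT embryos with α-amanitin, 8.74 and 10.49 in the 2-cell groups of the same kinds, and 6.38 to 8.03 elsewhere. Hybridization controls averaged 11.22 in 2-cell SCNT embryos with α-amanitin and 9.89 to 10.37 in the other groups. The 18S probe sets averaged 10.25 to 11.22 in untreated 2-cell groups and 12.72 to 13.25 elsewhere. The part of these measures in the results on SCNT and on stage was not tested. Replicate 1 of the 1-cell fertilized embryos also stood apart from the other 3 for several of the 10 genes.

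**Figure D1:**
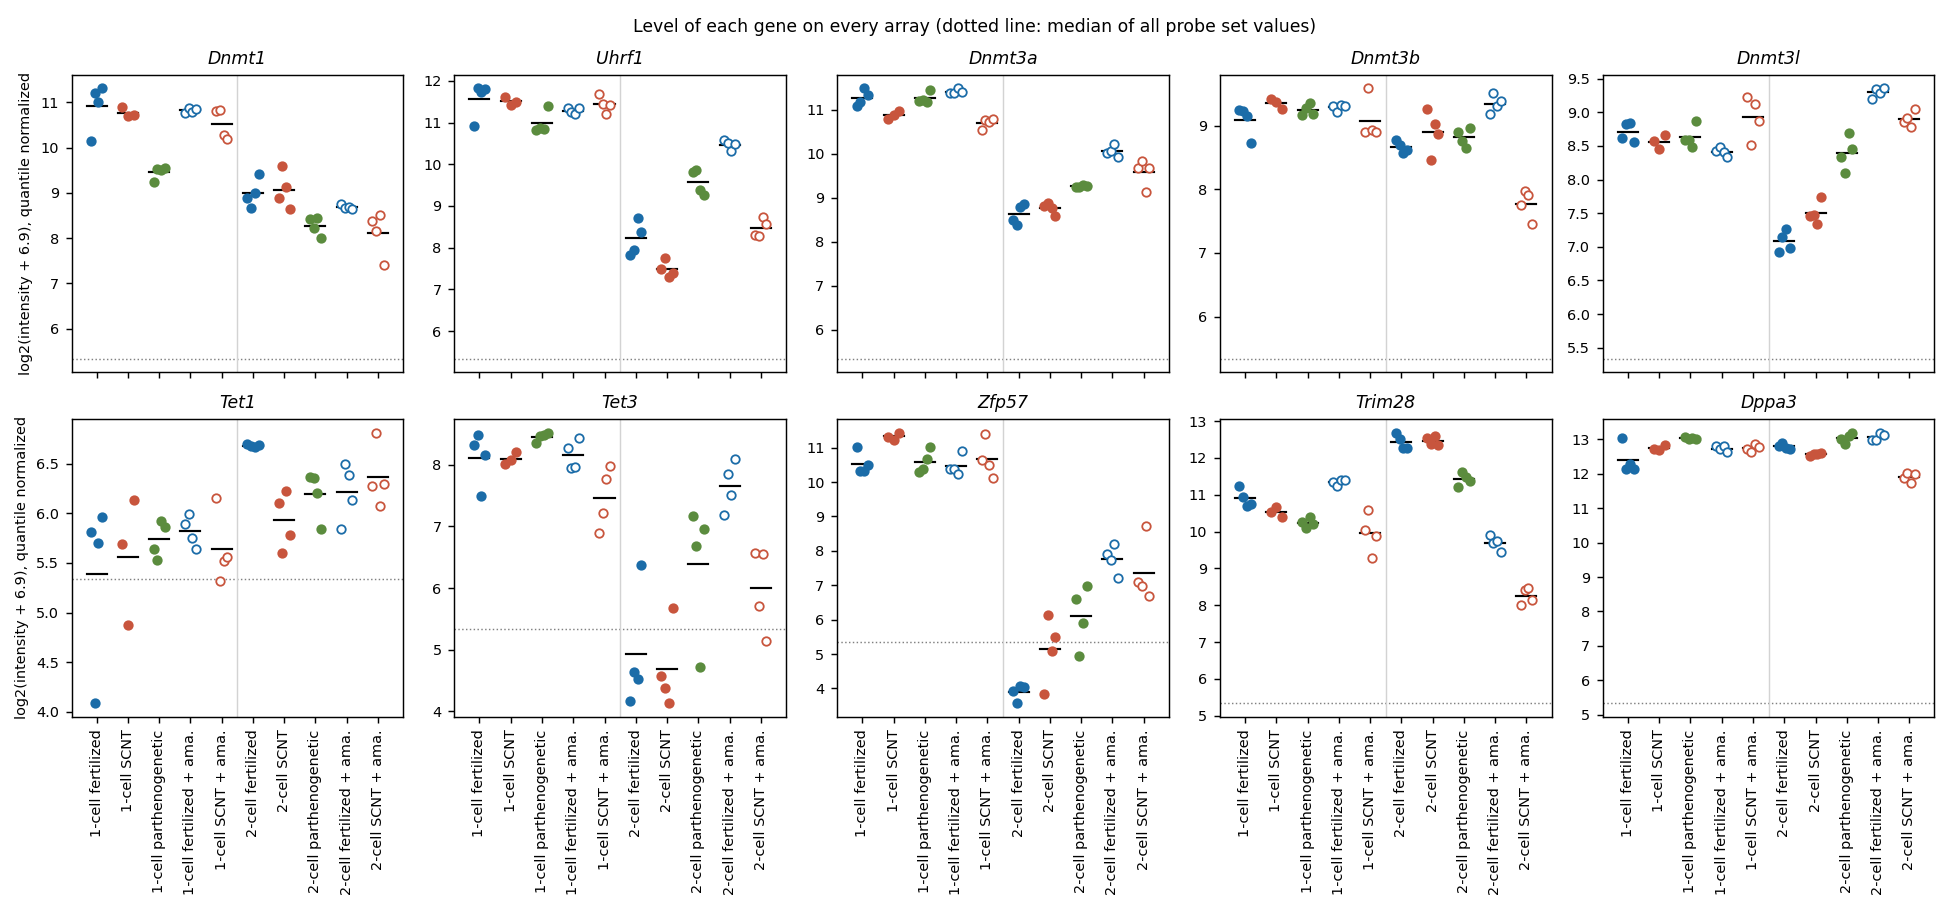
Level of each of the 10 genes on every array, as quantile normalized log2(intensity + 6.9), for the 10 groups (x axis). Each point is an array and the bar is the group mean; blue is fertilized, red SCNT and green parthenogenetic, open points had α-amanitin, and the dotted line is the median of all values (5.34). Zfp57 falls to 3.91 in 2-cell fertilized embryos from 10.54 at the 1-cell stage, while Trim28 rises from 10.90 to 12.43.

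The maintenance pair fell at the first cleavage. Dnmt1 in fertilized embryos was at 10.15, 11.22, 11.01 and 11.32 on the 1-cell arrays and at 8.89, 8.66, 8.99 and 9.43 on the 2-cell arrays. The groups did not overlap, and the change was -1.93 (SE 0.21, 3.82-fold lower, adjusted p = 9.8e-11). In SCNT embryos it went from 10.90, 10.70 and 10.73 to 8.90, 9.60, 9.14 and 8.63, a fall of 1.71 (SE 0.22). Parthenogenetic embryos began lower, at 9.24 to 9.56, below every fertilized 1-cell array (-1.47, SE 0.21, adjusted p = 9.71e-07), and fell to 8.01 to 8.44. Dnmt1 therefore covered a smaller distance in parthenogenetic embryos, by 0.75 (SE 0.29, adjusted p = 0.0423), not called with median centring (0.36), without the filter or the variance trend, or without any 1 of 11 of its arrays.

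Uhrf1 fell further than Dnmt1. It was at 10.92, 11.83, 11.73 and 11.82 in 1-cell and at 7.83, 7.95, 8.72 and 8.39 in 2-cell fertilized embryos (-3.35, SE 0.17, 10.2-fold lower, adjusted p = 5.94e-20). In SCNT embryos the 2-cell arrays read 7.49, 7.74, 7.31 and 7.38, all below the fertilized ones, and the fall was 4.03 (SE 0.19). Parthenogenetic 2-cell embryos kept more, 9.26 to 9.87, and their fall of 1.41 (SE 0.17) was smaller than the fertilized one by 1.94 (SE 0.25, adjusted p = 3.01e-08). Parthenogenetic embryos thus had, at the 2-cell stage, less Dnmt1 (-0.72, SE 0.21) and more Uhrf1 (1.36, SE 0.17) than fertilized embryos.

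Dnmt1 and Uhrf1 also parted under α-amanitin. Dnmt1 fell between the stages with the drug too, by 2.14 (SE 0.21) in fertilized embryos: 2-cell fertilized arrays with α-amanitin read 8.75, 8.66, 8.69 and 8.64 against 8.66 to 9.43 untreated, overlapping (-0.31, SE 0.21, adjusted p = 0.193). Uhrf1 with the drug stayed at 10.58, 10.50, 10.31 and 10.49 in fertilized 2-cell embryos, 2.25 (SE 0.17, 4.76-fold) above the untreated ones. In SCNT embryos the drug left Uhrf1 at 8.30, 8.28, 8.74 and 8.56, only 0.99 (SE 0.17) above untreated, and the drug's effect was smaller than in fertilized embryos by 1.26 (SE 0.25, adjusted p = 5.52e-05). Dnmt1 in SCNT embryos was lower with the drug (8.37, 8.17, 8.51 and 7.41; -0.95, SE 0.21), but the drug's effect on it was not called different between the origins (-0.64, SE 0.29, adjusted p = 0.0788). The other probe sets of Dnmt1 (2) and Uhrf1 (1) followed the chosen ones over the 10 group means at r = 0.967 to 0.983.

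Of the de novo writers, Dnmt3a fell most. In fertilized embryos it was at 11.09 to 11.50 in the 1-cell and at 8.38 to 8.85 in the 2-cell stage (-2.65, SE 0.11, 6.30-fold lower, adjusted p = 2.18e-22). SCNT embryos fell by 2.12 (SE 0.12) and parthenogenetic embryos by 2.00 (SE 0.11). With α-amanitin, 2-cell levels were 9.92 to 10.23 in fertilized embryos, 1.43 (SE 0.11) above untreated, and 9.12 to 9.84 in SCNT embryos, 0.81 (SE 0.11) above untreated. The other 4 Dnmt3a probe sets also read higher with the drug at the 2-cell stage, some by little. The smallest changes of their means were 7.21 to 7.32 in fertilized embryos, and 6.57 to 6.69 and 5.70 to 5.79 in SCNT embryos. All 5 Dnmt3a probe sets fell between the stages in untreated fertilized embryos, the other 4 by 0.70 to 1.14. They disagree on origin. At the 2-cell stage SCNT minus fertilized was 0.14 (SE 0.11) on the chosen probe set and -0.44 to -1.07 on the other 4, 2 of them called, and the mean of the probe sets fell by 0.53 (adjusted p = 5e-04). No direction for Dnmt3a between 2-cell SCNT and fertilized embryos is given for that reason.

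Dnmt3b moved little between the stages: it fell by 0.42 (SE 0.14) in fertilized embryos, by 0.45 (SE 0.16) in SCNT embryos (-0.30 and not called without 2-cell SCNT replicate 2) and by 0.43 (SE 0.14) in parthenogenetic embryos. On the second Dnmt3b probe set the means went from 7.86 to 7.18, from 7.41 to 7.27 and from 7.93 to 7.30 in those origins, in that order. The groups of Dnmt3b parted under the drug on the chosen probe set. In 2-cell fertilized embryos it was at 8.78, 8.69, 8.58 and 8.62 untreated and 9.18, 9.51, 9.31 and 9.39 with α-amanitin, a rise of 0.68 (SE 0.14). In 2-cell SCNT embryos it was at 9.26, 8.46, 9.02 and 8.87 untreated and 7.76, 7.98, 7.91 and 7.46 with the drug, a fall of 1.12 (SE 0.14). The 4 treated SCNT arrays are the lowest of all 39 for Dnmt3b. The second Dnmt3b probe set rose alike in fertilized embryos (0.80, SE 0.17) but read 0.02 (SE 0.17) in SCNT embryos, so the fall rests on the chosen probe set. The second probe set was still lower in treated SCNT than in treated fertilized 2-cell embryos (-0.69, SE 0.17, adjusted p = 0.000939).

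Dnmt3l, the helper of the de novo enzymes, behaved differently from both. In fertilized embryos it fell from 8.61, 8.82, 8.84 and 8.56 to 6.92, 7.15, 7.26 and 6.99 (-1.63, SE 0.13). With α-amanitin it rose between the stages in fertilized embryos instead, from 8.42, 8.48, 8.40 and 8.34 to 9.20, 9.35, 9.28 and 9.36 (0.88, SE 0.13), which with median centring was 0.30 and no longer called. Treated SCNT embryos showed no such rise, with means of 8.93 at the 1-cell and 8.90 at the 2-cell stage. The treated 2-cell fertilized arrays hold the highest group mean of Dnmt3l. Parthenogenetic embryos had 8.10 to 8.69 at the 2-cell stage and no called change (-0.23, SE 0.13, adjusted p = 0.141). SCNT embryos lay between at 7.46, 7.48, 7.34 and 7.73, above every fertilized 2-cell array (0.42, SE 0.13, adjusted p = 0.011, or 0.0582 without 2-cell SCNT replicate 4).

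On the chosen probe sets, the TET genes moved in opposite directions in fertilized embryos. Tet3, abundant in the oocyte, was at 8.32, 8.48, 7.50 and 8.15 in 1-cell fertilized embryos and at 4.17, 4.64, 4.52 and 6.38 in 2-cell ones. Replicate 4 lay above the rest but below all 1-cell arrays, and the change was -3.19 (SE 0.40, adjusted p = 6.01e-09). SCNT embryos fell by 3.40 (SE 0.44) and parthenogenetic embryos by 2.07 (SE 0.40). The untreated 2-cell fertilized and SCNT means of 4.93 and 4.69 lie under the median of all values, and the size of the difference there depends on the constant: in fertilized embryos it was -3.48 with a constant of 1.8 and -2.63 with 22.1. With α-amanitin Tet3 stayed at 7.18, 7.84, 7.51 and 8.09 in fertilized 2-cell embryos, 2.73 (SE 0.40) above untreated, and at 6.57, 5.71, 6.56 and 5.14 in SCNT embryos, 1.30 (SE 0.40) above. The difference between those effects (-1.43, SE 0.57, adjusted p = 0.0442) was not called in 17 of the refits.

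Tet1 was dim and rose in fertilized embryos, from 5.81, 4.09, 5.71 and 5.96 to 6.70, 6.68, 6.67 and 6.69 (1.29, SE 0.28, adjusted p = 0.00011). SCNT (0.36, SE 0.30) and parthenogenetic embryos (0.45, SE 0.28) had no called change. At the 2-cell stage SCNT arrays, at 5.60 to 6.23, lay below all fertilized ones (-0.76, SE 0.28, adjusted p = 0.0364, not called in 8 alternatives). A further Tet1 probe set showed no such difference (0.01, SE 0.38, adjusted p = 0.986). The probe set with the highest mean intensity, a choice added after seeing the data, was again highest in fertilized embryos: 7.63 ± 0.17 (SD, n = 4) in 2-cell fertilized, 6.30 ± 0.19 (SD, n = 4) in SCNT and 6.0 ± 0.29 (SD, n = 4) in parthenogenetic embryos. On it, Tet1 rose by 2.48 (SE 0.28) in fertilized and 1.00 (SE 0.31) in SCNT embryos, and α-amanitin lowered it by 2.08 (SE 0.28) in fertilized 2-cell embryos, where the chosen probe set gave -0.46 (SE 0.28, adjusted p = 0.147). That further probe set, the third to pass the filter on low values, gave no called stage change in fertilized embryos (0.21, SE 0.38) and fell with the drug at the 2-cell stage in both origins (-2.31 and -1.76, SE 0.38). The fourth did not pass the filter. The direction under α-amanitin in SCNT embryos thus differs between Tet1 probe sets.

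Zfp57, which holds methylation at imprinted regions, lost most of its signal. In fertilized embryos it went from 11.01, 10.33, 10.32 and 10.49 to 3.92, 3.57, 4.08 and 4.05 (-6.63, SE 0.37, 99.1-fold on this scale, adjusted p = 9.41e-19). The 2-cell level lies under the median of all values, so the size rests partly on the constant: -7.25 with 1.8 and -5.63 with 22.1. SCNT embryos went from 11.32, 11.23 and 11.44 to 3.84, 6.14, 5.09 and 5.50, a fall of 6.19 (SE 0.40). Parthenogenetic embryos ended at 6.60, 4.94, 5.90 and 6.96, above all fertilized 2-cell arrays (2.20, SE 0.37), and their fall was smaller by 2.14 (SE 0.53, adjusted p = 0.00125). The 2-cell SCNT arrays overlapped the fertilized ones, and their excess of 1.23 (SE 0.37, adjusted p = 0.00952) was 0.90 (adjusted p = 0.0776) without replicate 2.

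Zfp57 fell with α-amanitin too, but less far. Treated 2-cell arrays read 7.91, 7.75, 8.20 and 7.21 in fertilized and 7.10, 6.97, 8.72 and 6.67 in SCNT embryos, above every untreated array of their kind. The drug's effect at the 2-cell stage was 3.86 (SE 0.37, 14.5-fold higher on this scale) in fertilized and 2.22 (SE 0.37) in SCNT embryos. The difference of these effects, SCNT minus fertilized, was -1.64 (SE 0.53, adjusted p = 0.0122). The untreated 2-cell means, 3.91 in fertilized and 5.14 in SCNT embryos, lie under the median of all values. The sizes of both effects and of their difference therefore rest partly on the constant. The treated groups themselves overlapped (-0.40, SE 0.37, adjusted p = 0.418). The range of Zfp57 over the 10 group means, 7.43, is wider than that of 99.8% of the genes tested.

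Trim28, the partner of ZFP57, went the other way. In fertilized embryos it rose from 11.24, 10.93, 10.70 and 10.75 to 12.69, 12.50, 12.26 and 12.28 (1.53, SE 0.15, 2.89-fold, adjusted p = 2.36e-11). In SCNT embryos it rose from 10.52, 10.67 and 10.39 to 12.54, 12.38, 12.59 and 12.36 (1.94, SE 0.17). In parthenogenetic embryos 1-cell arrays held 10.09 to 10.39 and 2-cell arrays 11.21 to 11.61, a rise of 1.18 (SE 0.15), and at the 2-cell stage lay below all fertilized arrays (-1.01, SE 0.15, adjusted p = 5.82e-07).

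With α-amanitin Trim28 fell where it had risen. Fertilized embryos fell from 11.35, 11.25, 11.41 and 11.41 to 9.89, 9.69, 9.74 and 9.45 (-1.66, SE 0.15), and SCNT embryos from 10.04, 10.58, 9.29 and 9.89 to 8.01, 8.41, 8.47 and 8.14 (-1.69, SE 0.15). At the 2-cell stage the drug lowered it by 2.74 (SE 0.15, 6.67-fold) in fertilized and by 4.21 (SE 0.15, 18.5-fold) in SCNT embryos, and the effects differed (-1.47, SE 0.22, adjusted p = 6.15e-07). The treated SCNT embryos were already lower at the 1-cell stage (-1.40, SE 0.15 against treated fertilized embryos). The second Trim28 probe set followed the chosen one at r = 0.993 over the 10 group means.

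Dppa3 stayed bright and nearly level, with group means from 11.90 to 13.07. In 1-cell parthenogenetic embryos replicates 1 and 3 read 13.05 and replicates 2 and 4 read 13, and the 2-cell arrays read 13.01, 12.87, 13.09 and 13.18. In fertilized embryos it read 13.05, 12.13, 12.27 and 12.12 and then 12.80, 12.90, 12.75 and 12.72 (0.40, SE 0.11, adjusted p = 0.00183), but the groups overlapped through replicate 1 and the rise was 0.07 and not called with median centring. The 2-cell SCNT arrays with α-amanitin, at 11.88, 12.02, 11.73 and 11.99, were the lowest of all 39, but without quantile normalization they read 12.30, 12.33, 11.92 and 12.22 and 1-cell fertilized and 2-cell SCNT arrays lay among them. Against treated fertilized ones the difference was -1.17 (SE 0.11, adjusted p = 1.37e-11). Against untreated 2-cell SCNT embryos the difference was -0.66 (SE 0.11), and -0.12 and not called with median centring.

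The order of the groups differed between the 10 genes. The 5 highest group means of Dnmt1, Uhrf1, Dnmt3a and Zfp57 are the 5 groups at the 1-cell stage, and for Trim28 the 3 highest are the untreated 2-cell groups. For Uhrf1 the arrays of 4 of 9 neighbouring pairs in that order did not overlap (among 2-cell embryos the fertilized with α-amanitin, the parthenogenetic, the SCNT with α-amanitin and the SCNT groups each stood clear of the group above). Dnmt3a and Trim28 also had 4 such pairs of 9, Dppa3 3, Dnmt1 and Dnmt3l 2, Dnmt3b and Zfp57 1, and Tet1 and Tet3 none. Overlap of so few arrays does not show that neighbours are alike, and not every neighbouring pair was tested. The share of all genes with such orders, or with as many pairs that did not overlap, was not computed.

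Between the stages in untreated embryos, Dnmt1, Uhrf1, Dnmt3a, Dnmt3b, Tet3 and Zfp57 fell and Trim28 rose in all 3 origins. The share of all genes that did so in all 3 was not computed, and it is at most 27.4% falling and 21.7% rising. The call of Dnmt3b in SCNT embryos was lost without 2-cell SCNT replicate 2. In fertilized embryos all 10 genes were called, where 60.0% of all genes were; 7 fell, where 34.2% of all genes did, and 3 rose. Their median difference was -1.78, against -0.13 over all genes tested. In SCNT embryos 8 were called (60.7% of all genes), 7 falling (34.4% of all genes) and 1 rising, with a median of -1.38 against -0.14. In parthenogenetic embryos 7 were called (49.1%), 6 falling (27.4%) and 1 rising, with a median of -0.81 against -0.04. The arrays of the stages did not overlap for 8, 9 and 7 of the 10 genes, where this held for 55.0%, 62.8% and 48.5% of all genes.

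**Figure D2:**
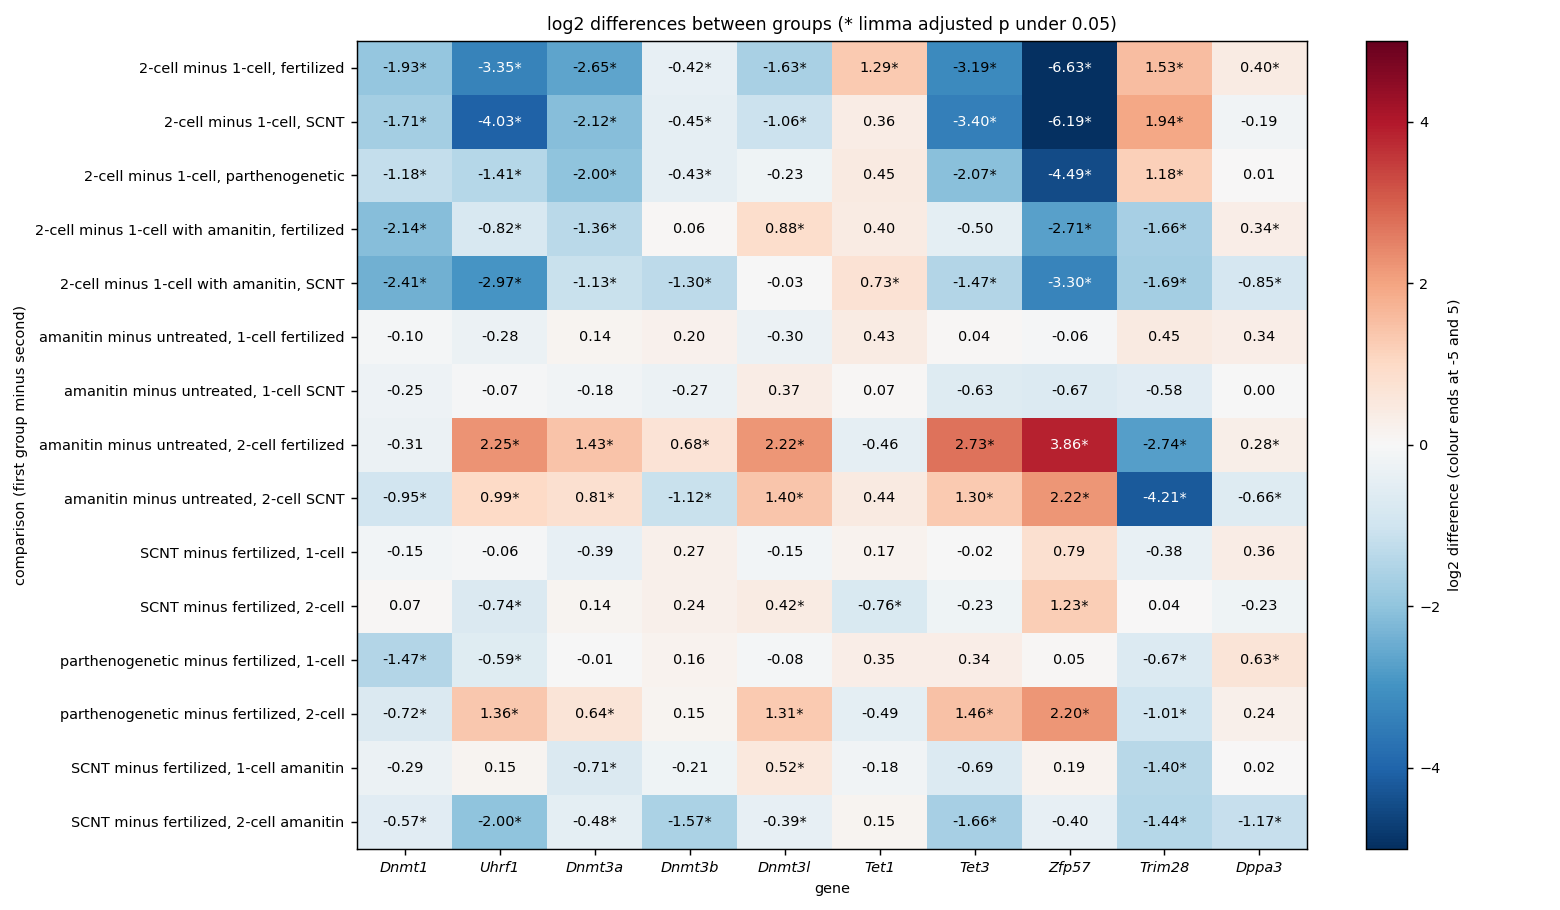
The log2 difference of each of the 10 genes (columns) in the 15 comparisons of groups (rows, first group minus second), written in each cell and coloured from blue (lower) to red (higher). An asterisk marks limma's adjusted p under 0.05; Zfp57 between the stages holds the lowest value, -6.63, and Trim28 is the lowest of the α-amanitin rows at -4.21.

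The stage change differed by origin for some genes. In parthenogenetic minus fertilized embryos 5 of the 10 genes had a called positive difference of the change, Dnmt1, Uhrf1, Dnmt3a, Dnmt3l and Zfp57, and Dppa3 a negative one (6 called, where 35.4% of all genes were). Dnmt3l differed by 1.39 (SE 0.19, adjusted p = 8.75e-08) and Dnmt3a by 0.65 (SE 0.16), the latter 0.12 as the mean of its probe sets and 0.19 with median centring, not called in either. In SCNT minus fertilized embryos 2 were called positive, Dnmt3a (0.53) and Dnmt3l (0.57), where 8.62% of all genes were, and Dppa3 negative (-0.58), where 10.4% were. As the mean of its probe sets the value for Dnmt3a was -0.62, and with median centring 1 of the 3 stayed called. These comparisons share the fertilized arrays.

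Under α-amanitin the stage change had another pattern. In treated fertilized embryos 7 genes were called (40.6% of all genes), 5 falling and 2 rising. In treated SCNT embryos 9 were called (55.4%), 8 falling (29.8% of all genes) and 1 rising. On the chosen probe sets, Dnmt1, Uhrf1, Dnmt3a, Zfp57 and Trim28 fell in both. The other Dnmt3a probe sets disagree in treated fertilized embryos. Their 1-cell and 2-cell means were 7.26 and 7.34, 7.59 and 7.69, 7.80 and 7.32, and 8.12 and 7.76. The change with the drug minus that without it, a contrast added after seeing the data, was called for 7 genes in fertilized embryos (54.6% of all genes), positive for 6 and negative for Trim28. It was called for 9 in SCNT embryos (58.5%), positive for 5 and negative for 4. It was 3.92 (SE 0.53) for Zfp57, 2.69 (SE 0.57) for Tet3, 2.53 (SE 0.25) for Uhrf1, 2.51 (SE 0.19) for Dnmt3l and 1.29 (SE 0.16) for Dnmt3a in fertilized embryos. The value for Trim28 was -3.19 (SE 0.22) in fertilized and -3.63 (SE 0.23) in SCNT embryos.

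**Figure D3:**
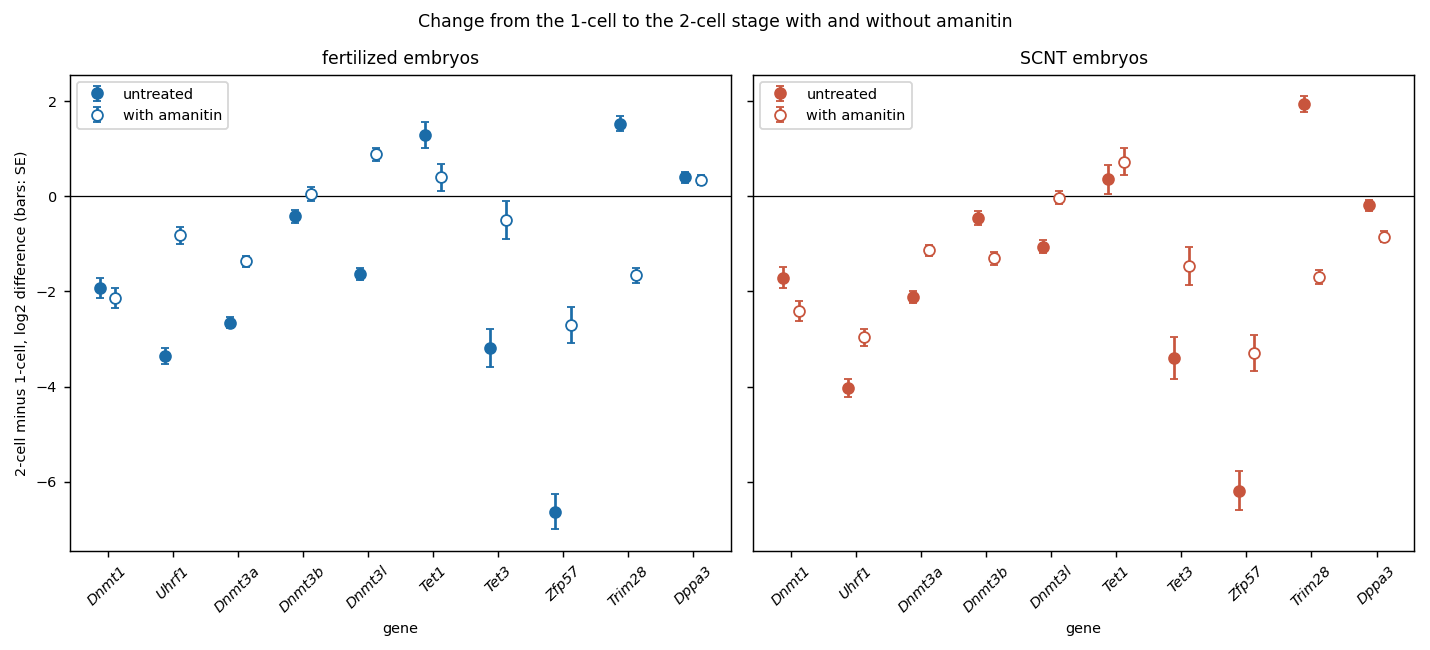
Change from the 1-cell to the 2-cell stage (2-cell minus 1-cell, log2, with SE bars) for the 10 genes in fertilized (left) and SCNT embryos (right), untreated (filled) and with α-amanitin (open). Trim28 is above zero untreated (1.53 and 1.94) and below it with the drug (-1.66 and -1.69), and Zfp57 falls less with the drug (-2.71 and -3.30) than without it (-6.63 and -6.19).

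At the 1-cell stage the drug moved little. None of the 10 genes was called by limma in fertilized embryos (6.03% of all genes called) or in SCNT embryos (0.429%). At an unadjusted limma p under 0.05 there were 3 and 2 of the 10. The share of all genes at that unadjusted threshold was not computed. Without fertilized replicate 1, Trim28 (0.56), Dppa3 (0.55) and Uhrf1 (-0.50) were called in fertilized embryos. The drug's effect differed by origin for Trim28 (-1.03, SE 0.23, adjusted p = 0.00922; 2.41% of all genes called), a call lost when only the compared arrays were fitted.

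In 2-cell fertilized embryos 8 of the 10 genes were called (64.3% of all genes), 7 higher with the drug (38.6% of all genes) and Trim28 lower. In 2-cell SCNT embryos 9 were called (69.2%): Uhrf1, Dnmt3a, Dnmt3l, Tet3 and Zfp57 were higher (39.6% of all genes) and Dnmt1, Dnmt3b, Trim28 and Dppa3 lower. The summed oocyte markers were also higher with the drug, 26030 to 30335 against 11662 to 13151 in fertilized 2-cell embryos. In SCNT 2-cell embryos they were 26832 to 28425 against 8670 to 10566, and their part in these results was not tested. The drug's effect, SCNT minus fertilized, was negative for 8 of the 10 genes (21.1% of all genes) and positive for none, with 38.9% of all genes called in either direction. Dnmt1 and Tet1 were not called. The median over the 10 was -1.10, against 0.00 over all genes tested. Dnmt3b had -1.81 (SE 0.20), Zfp57 -1.64, Trim28 -1.47, Tet3 -1.43, Uhrf1 -1.26, Dppa3 -0.94, Dnmt3l -0.82 and Dnmt3a -0.62. The latter was -0.35 and not called as the mean of its probe sets. On the second Dnmt3b probe set the 2-cell means without and with the drug were 7.27 and 7.29 in SCNT and 7.18 and 7.99 in fertilized embryos. The Tet3 difference was not called in some refits, and the fall of Dppa3 in SCNT embryos was not called with median centring. Untreated 2-cell means of Tet3 and Zfp57 lie under the median of all values. The treated 2-cell SCNT arrays are those with the highest spike-in and hybridization controls, and their replicates had the lowest correlations, down to 0.9397.

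Among untreated embryos, SCNT and fertilized 1-cell embryos differed in none of the 10 by limma, where 5.56% of all genes were called. At an unadjusted limma p under 0.05 there were 3, and the share of all genes at that unadjusted threshold was not computed. Without fertilized replicate 1, Dppa3 (0.58) and Dnmt3a (-0.46) were called. The other 4 Dnmt3a probe sets read -0.04 to 0.59 in this comparison over all its arrays, none of them called, so no direction is given for Dnmt3a here. By the 2-cell stage Dnmt3l and Zfp57 were higher and Uhrf1 and Tet1 lower in SCNT embryos (4 of 10 called, where 30.6% of all genes were). The calls of Dnmt3l, Zfp57 and Tet1 were each lost in some refits, as given for each gene above. Uhrf1 was -0.74 (SE 0.17, adjusted p = 0.000832). Dnmt1 (0.07, SE 0.21) and Trim28 (0.04, SE 0.15) overlapped between the origins.

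Parthenogenetic 1-cell embryos had less Dnmt1, Uhrf1 and Trim28 and more Dppa3 than fertilized ones (4 called, where 20.4% of all genes were). Trim28 was -0.67 (SE 0.15) and Uhrf1 -0.59 (SE 0.17), which were -0.38 and -0.30 and not called with median centring, and Dppa3 0.63 (SE 0.11). The arrays of the groups overlapped for Uhrf1 and Dppa3, in both through 1-cell fertilized replicate 1. In 2-cell embryos 7 were called (47.4%), with Uhrf1, Dnmt3a, Dnmt3l, Tet3 and Zfp57 higher (26.4% of all genes) and Dnmt1 and Trim28 lower. Dnmt3a, 0.64 (SE 0.11) there, was 0.16 and not called as the mean of its probe sets. Those 5 genes are among the 7 that fell between the stages in fertilized embryos, and these comparisons share the fertilized arrays. The summed oocyte markers were 19289 to 22663 on these parthenogenetic arrays and 11662 to 13151 on the fertilized ones, and their part in this result was not tested.

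With α-amanitin, SCNT embryos had less Trim28 and more Dnmt3l than fertilized embryos at the 1-cell stage, and the chosen Dnmt3a probe set was lower (3 called, where 21.5% of all genes were). The probe sets of Dnmt3a disagree there: the chosen one gave -0.71 and the other 4 gave -0.39 to 0.68, none of those called. In treated 2-cell embryos 8 of the 10 were lower in SCNT embryos (24.6% of all genes) and none higher (43.2% called in either direction), with a median of -0.87 against -0.04 over all genes. Uhrf1 was 4.00-fold lower (-2.00, SE 0.17, adjusted p = 1.42e-12), Tet3 -1.66 (SE 0.40), Dnmt3b -1.57 (SE 0.14) and Trim28 -1.44 (SE 0.15). Dnmt1 was -0.57 (SE 0.21, adjusted p = 0.0229), and -0.33 and not called without 2-cell SCNT replicate 4 with α-amanitin. Zfp57 and Tet1 were not called.

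Around these genes stand others that copy, read, excise or guard methylation, and 46 of the 54 listed were measured. Between the stages 25 fell and 8 rose in fertilized embryos, where 34.2% of all genes fell and 25.8% rose (median -0.56, against -0.13 over all genes tested). In SCNT embryos 25 fell and 8 rose, where 34.4% and 26.3% of all genes did (-0.67 against -0.14). In parthenogenetic embryos 26 fell and 4 rose, where 27.4% and 21.7% did (-0.56 against -0.04). In all 3 origins 19 fell and 3 rose. The share of all genes that did so in all 3 was not computed, and it is at most 27.4% falling and 21.7% rising. Among genes of imprint setting and protection 12 of 18 fell in fertilized embryos (34.2% of all genes), including Nlrp5 (-2.68, SE 0.09) and Nlrp14 (-2.76, SE 0.13), maternal-effect proteins, and Cbx1 (-3.28, SE 0.14), a heterochromatin protein. All 3 measured genes of methyl donor supply fell in each origin. Ehmt2, a histone H3 lysine 9 methyltransferase, rose in fertilized (3.39, SE 0.32) and SCNT embryos (3.44, SE 0.35). Its 1-cell means there, 3.39 and 4.07, lie under the median of all values, and with constants of 1.8 and 22.1, tried after seeing the data, the rises were 4.32 and 2.27 in fertilized and 4.00 and 2.60 in SCNT embryos. Among the repair genes Neil3, a DNA glycosylase, fell (-3.75, SE 0.18 in fertilized embryos), and Xrcc1, a repair scaffold, rose by 4.97 (SE 0.38) in SCNT embryos. The 1-cell SCNT mean of Xrcc1, 4.01, also lies under that median, and the rise was 5.51 and 4.05 with those constants. In fertilized embryos Xrcc1 was 2.66 higher at the 2-cell stage (2.91 and 2.16 with those constants), from a 1-cell mean of 4.91, under that median too.

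**Figure D4:**
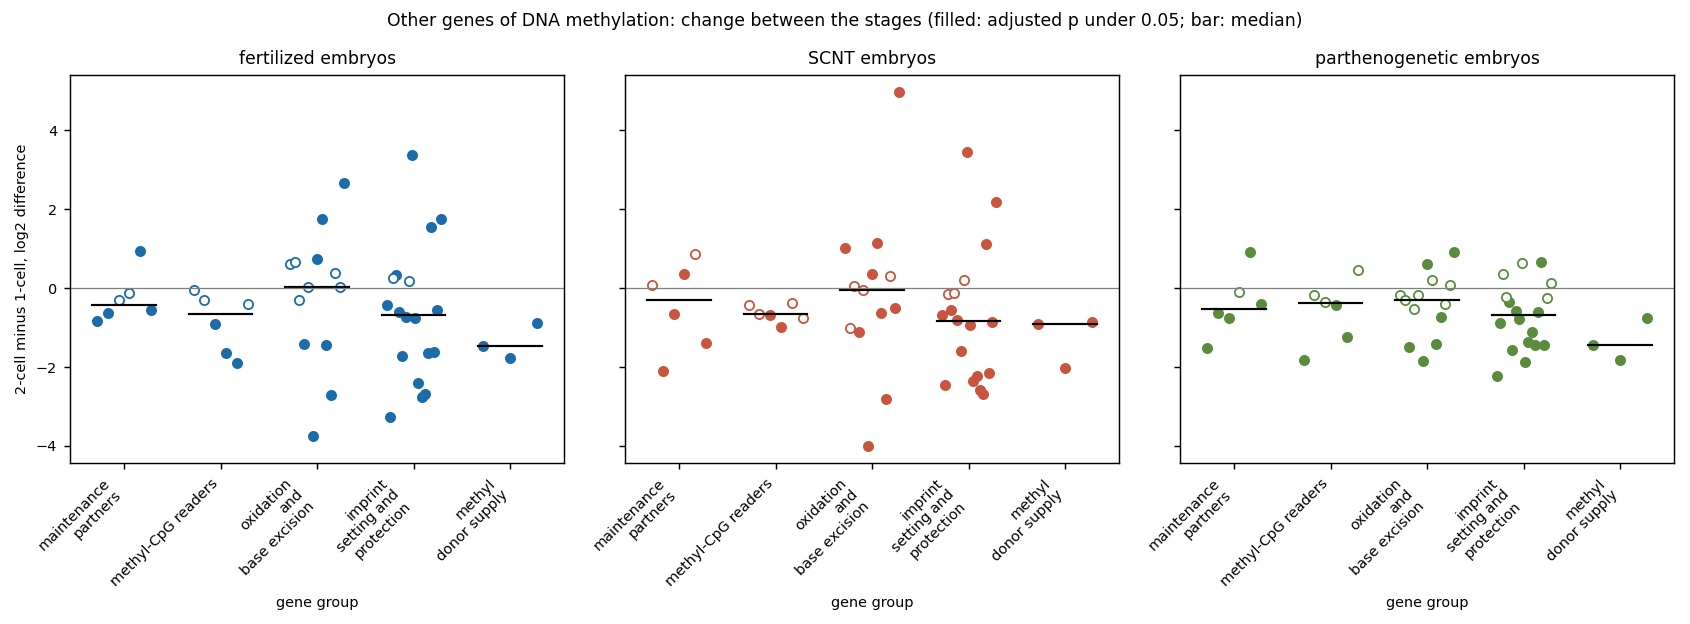
Change from the 1-cell to the 2-cell stage (log2) of the 46 measured pathway genes in 5 groups, for fertilized, SCNT and parthenogenetic embryos. Each point is a gene, filled where limma's adjusted p was under 0.05, and the bar is the median; genes of methyl donor supply lie below zero in all 3 panels.

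With α-amanitin at the 2-cell stage 22 of the 46 were higher and 13 lower in fertilized embryos, where 38.6% and 25.8% of all genes were. In SCNT embryos 17 were higher and 16 lower, where 39.6% and 29.7% were. Xrcc1 (-3.65, SE 0.35) and Ehmt2 (-3.06, SE 0.32) were lower in fertilized embryos, their treated means (3.92 and 3.71) being under the median of all values, and Cbx1 (3.72, SE 0.14) and Kdm1b (2.59, SE 0.11), a histone demethylase needed for maternal imprints, were higher. In SCNT embryos Apex1 (-4.51, SE 0.39), an abasic-site endonuclease, and Pcna (-2.90, SE 0.14), the replication clamp, were among the lowest, and Mbd3 (2.77, SE 0.20), a methyl-CpG-binding-domain protein, was higher. Of the 46, the drug's effect differed by origin for 23, 8 positive and 15 negative, where 38.9% of all genes were called and 21.1% were negative, the largest being Kdm1a (-3.25, SE 0.25), a histone H3 lysine 4 demethylase. In treated 2-cell embryos 21 were lower and 7 higher in SCNT than in fertilized embryos, where 24.6% of all genes were lower and 43.2% called in either direction.

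Without the drug at the 2-cell stage, 6 of the 46 were higher and 10 lower in SCNT than in fertilized embryos, where 30.6% of all genes were called. Hells, a chromatin remodeler that aids methylation, was lower (-1.07, SE 0.13, adjusted p = 3.58e-08), and Polb, a repair polymerase, higher (0.94, SE 0.12). In parthenogenetic embryos 14 were higher and 12 lower than in fertilized ones, where 47.4% of all genes were called and 26.4% were higher. Cbx1 was higher (2.52, SE 0.14) and Ehmt2 lower (-2.77, SE 0.32; -3.31 and -1.98 with the constants of 1.8 and 22.1). At the 1-cell stage with the drug, 3 were higher and 2 lower in fertilized embryos (6.03% of all genes called), and Pcna alone was called in SCNT embryos (-0.65, SE 0.15, adjusted p = 0.0312; 0.429% of all genes called).

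Over the 10 group means, the tested genes most like each of the 10 were found by Pearson's r, as a description with n = 10 groups that share arrays and stages. Most like Uhrf1 were Stard4 (0.994), Ldlrad3 (0.992) and Aurkc (0.992), and most like Zfp57 were Kctd21 (0.993), Sfr1 (0.990) and Fetub (0.989). Mrpl34 (0.993), Slc30a5 (0.981) and Med11 (0.979) came closest to Trim28. Dnmt1 was nearest to Papolg (0.979), Dnmt3a to Gatad2b (0.990), Dnmt3b to Snx27 (0.980), Dnmt3l to Wfdc15b (0.981) and Tet3 to Ankrd66 (0.988). The likeness was lower for Tet1 (Bzw1, 0.973) and Dppa3 (Snrpg, 0.932), which varied least between groups.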

How the data were processed

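Per the labels, poly(A) RNA was extracted with a PicoPure kit and labelled with biotin. The authors deposited 1 intensity per probe set, not on a log scale. Each array has a 2% trimmed mean of 150, so a global scaling was applied before deposit; the software and its settings are not given in the sources used here.

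The 64 control probe sets were set aside. Values were taken as log2(intensity + 6.9), the constant being the 20th percentile, and quantile normalized because array medians ran from 4.92 to 5.74. A probe set was kept if 4 or more arrays exceeded 5.34, the median of all values, and GEO's platform annotation lists 1 gene for it, and the one with the highest mean stood for each of 14916 genes. All 10 genes passed this filter. One mean per group was estimated by limma 3.58.1 under R 4.3.3 (lmFit, eBayes with trend, 29 residual degrees of freedom), 2-sided, for 15 comparisons and 6 interactions. The fit was tested on simulated data. All 10 genes are named, and of the pathway genes up to 6 of the largest called differences per comparison. The genes, lists and tests were chosen with earlier results of these data known. The alternatives were other scalings, constants, filters, probe set rules and fits, the replicate number as a block, and refits without 1 array. Same-numbered arrays of different groups did not deviate together (residual correlations -0.04 to 0.09 over 45 pairs of groups), so the numbers do not pair samples. On arrays, signal over background limits precision for dim probe sets, and their number limits it further.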

Additional observations from a re-analysis of the deposited data

Results flagged for a closer look

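In 7 of 90 groups tested a single array lay far from the rest of its group by Dixon's criterion, and chance gives about 1 in 20. They are 10.92 for Uhrf1 and 13.05 for Dppa3 in 1-cell fertilized replicate 1, 8.72 for Dnmt3b in replicate 4 and 4.09 for Tet1 in replicate 2 of the same group. The others are 11.40 for Uhrf1 in 1-cell parthenogenetic replicate 4, 11.49 for Dnmt3a in 1-cell fertilized embryos with α-amanitin, replicate 3, and 9.59 for Dnmt3b in 1-cell SCNT embryos with α-amanitin, replicate 2.

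Effects also differed between groups by the test of the difference itself. The effect of α-amanitin, SCNT minus fertilized, differed at the 1-cell stage for Trim28 (-1.03) and at the 2-cell stage for Dnmt3b (-1.81), Zfp57 (-1.64), Trim28 (-1.47), Tet3 (-1.43), Uhrf1 (-1.26), Dppa3 (-0.94), Dnmt3l (-0.82) and Dnmt3a (-0.62). The change between the stages, SCNT minus fertilized, differed for Dnmt3a (0.53), Dnmt3l (0.57) and Dppa3 (-0.58). For parthenogenetic minus fertilized embryos it differed for Zfp57 (2.14), Uhrf1 (1.94), Dnmt3l (1.39), Dnmt1 (0.75), Dnmt3a (0.65) and Dppa3 (-0.39).

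The change between the stages with α-amanitin minus that without it differed in fertilized embryos for Zfp57 (3.92), Tet3 (2.69), Uhrf1 (2.53), Dnmt3l (2.51), Dnmt3a (1.29), Dnmt3b (0.48) and Trim28 (-3.19). In SCNT embryos it differed for Zfp57 (2.89), Tet3 (1.93), Uhrf1 (1.07), Dnmt3l (1.03), Dnmt3a (0.99), Dppa3 (-0.66), Dnmt1 (-0.70), Dnmt3b (-0.85) and Trim28 (-3.63).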

How the results depend on the processing

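Of 2730 differences of the 10 genes recomputed under 13 alternatives, 2587 kept their direction and their side of the threshold, 58 lost the call, 81 gained one and 4 changed sign with a call. The last are Dppa3 in the fertilized stage change with α-amanitin minus untreated (0.56 with values as deposited), Dnmt3b between the stages in treated fertilized embryos (-0.56 with median centring), and Dnmt3a as the mean of its probe sets in 2-cell SCNT minus fertilized (-0.53) and in the stage change (-0.62). The causes were not tested. Of 2100 differences recomputed without 1 array, 1986 kept call and direction, 84 lost the call and 30 gained one.

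Counts of members called moved mainly at the 1-cell stage. For α-amanitin in 1-cell fertilized embryos the count of 0 became 4 with median centring, 2 with array weights, 1 with the mean of probe sets or only the compared arrays, and 2 when replicate 1 of the 1-cell fertilized and replicate 4 of the 1-cell SCNT arrays with α-amanitin were both left out; without 1 array it ran from 0 to 3, the latter without 1-cell fertilized replicate 1. For α-amanitin in 1-cell SCNT embryos, 0 became 1 with the mean of probe sets or array weights, and 0 to 1 without 1 array (1 without replicate 2 with α-amanitin). For SCNT minus fertilized at the 1-cell stage, 0 became 1 with values as deposited, the constant of 22.1, the filter on the mean or only the compared arrays, and 2 with array weights or without both arrays; without 1 array it ran from 0 to 2, the latter without 1-cell fertilized replicate 1. For the 1-cell difference in the drug's effect, 1 became 2 with values as deposited, median centring, the constant of 22.1 or the filter on the mean, 3 with array weights or without both arrays, 0 with only the compared arrays, and 1 to 3 without 1 array (3 without 1-cell fertilized replicate 1). Parthenogenetic minus fertilized 1-cell members went from 4 to 2 with median centring, and the SCNT stage difference from 3 to 1 with median centring or only the compared arrays (1 to 4 without 1 array, 1 without 1-cell fertilized replicate 3 or 1-cell SCNT replicate 1). SCNT minus fertilized at the 2-cell stage ran from 2 to 4, with 2 members without 2-cell SCNT replicate 4. Leaving out both arrays was chosen after seeing the data.

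With the replicate block, 208 of 210 differences kept their call; the exceptions are Dppa3 in the parthenogenetic stage difference (-0.39, adjusted p = 0.0528) and Dnmt1 in the SCNT stage change with α-amanitin minus untreated (-0.67, adjusted p = 0.0598). Scaling moved the median difference of all genes: in treated fertilized embryos between the stages it was 0.11 quantile normalized, 0.31 as deposited and -0.15 median centred, with 3212 genes higher and 2839 lower, 4857 and 2683, and 1003 and 4410.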
